A study of Mus musculus with 18 samples.

Results

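Of 27179 genes in the deposited table, 110 were read in old bone marrow mesenchymal stem cells (MSCs) and were at or near 0 in young ones. The genes were chosen by level, with 12 genes left out by name and with earlier results of these data known. Each had a normalized count of at most 3.4 in every one of the 6 young libraries and a mean of at least 100 over the 6 old libraries, a mean that 11060 genes reached. A normalized count is the number of reads on a gene divided by one scaling factor per library, and 3 reads in a young library were worth 3.15 on average. Both limits together were met by 119 genes, of which 9 (Ptprc, C1qa, C1qb, C1qc, Tyrobp, Kdm5d, Eif2s3y, Uty and Ddx3y) were left out by name because they are standard macrophage markers or lie on the Y chromosome. Since young and old levels chose the genes, the contrast between young and old is given below as a description without a test. The response to co-culture was measured in libraries of which only the old ones took part in the choice. Requiring a high old mean can by itself tilt that response toward a fall, most for genes near the limit, and this was not tested.

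All cells were primary MSCs from bone marrow of C57BL6 mice, expanded in plastic culture and collected on day 7. Young cells came from mice of 6 weeks and old cells from mice of 18 to 24 months, and the methods of the study describe all animals as male. Old MSCs were grown alone, or shared a well with young MSCs on the other side of a membrane with 0.4 µm pores (Transwell) that passes soluble factors and holds back cells. The latter are called rejuvenated old MSCs here, as in the labels. Each of the 3 groups held 6 libraries labelled as biological replicates. The labels do not say whether these were separate animals or separate wells, so that p-values measure the spread between libraries. No library of old MSCs grown beside other old MSCs was used here, so that the presence of any second cell layer and the presence of young cells cannot be told apart.

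MSCs are the adherent stromal cells of marrow. They support blood formation and can give rise to bone, cartilage and fat cells in culture, and they keep a transcription factor code of the skeletal site they come from, in which the Hox, Dlx and Pitx families take part. Marrow cultures can also carry macrophages, which adhere to plastic as MSCs do and express receptors, lectins and kinases of the innate immune system that stromal cells lack. A gene that is silent in one culture and read in another can therefore differ in regulation within a cell or in the cells present. In bulk RNA these readings, and fewer cells of a type against less RNA per cell, cannot be told apart.

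Young libraries held 22936251 to 25648769 reads on genes, old libraries 24965971 to 29559194 and rejuvenated old libraries 26018046 to 29155223. Some facts about the libraries touch every result that follows. The Y-linked genes Ddx3y, Eif2s3y, Kdm5d and Uty were between 0 and 2.06 in the young libraries and between 570.5 and 2203 in the old ones, although the methods name male mice. Xist, the RNA that coats the inactive X chromosome of females, averaged 34.4 in young cells, 6.11 in old cells and 7.07 after co-culture. Age and origin of the young cultures cannot be told apart in these data. Macrophage markers also separated young from old. Ptprc (CD45), a surface protein of blood cells, was 0 in all 6 young libraries and 162 to 208 in old ones. The study reports MSCs of both ages as negative for CD45 protein by flow cytometry, a measure unlike bulk RNA. C1qa, a complement subunit made by macrophages, was at most 1.03 in young and 1066 to 1342 in old MSCs. Of the left-out genes, Cd68 (395 to 479.6 in young), Csf1r (101 to 134) and Fcer1g (4.35 to 8.53) exceeded the young limit on their own. Marrow stromal and reticular cell markers were present throughout, with 28 of 31 listed genes at a mean of 10 or more in young MSCs and 30 in both other groups.

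Rejuvenated old replicate 1 stood apart. For 18 genes that were at 1000 or more in every young library and at 20 or less in every old library, the summed level was 1.55% of the young level in that library. It was 0.149% to 0.200% in the other 5 rejuvenated old libraries and 0.0852% to 0.130% in the old libraries. Cd34, a progenitor cell surface protein with 6787 to 7191 normalized counts in young MSCs, was 402 in rejuvenated old replicate 1, 24.2 to 41.9 in the other 5 and 19.4 to 28.0 in old MSCs. These are RNA values, and by flow cytometry the study reports young and old MSCs as negative for CD34 protein. The part of this library in the results below was not tested beyond leaving it out, and the counts without it are given beside the main ones.

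Start sites, which the choice did not use, held fewer CG pairs at the median in the matched old-only genes than in all genes tested, and about as many as in the promoter table as a whole. Promoter sequence from RefSeq (GRCm38.p6) was matched for 75 of them and for 10751 of the 14011 genes tested, and the 250 bases before the transcript start given there were searched for the dinucleotide CG on one strand. The median number of CG pairs was 5 in the old-only genes (quartiles 3 and 12) 16 in all genes tested (quartiles 9 and 23) and 6 in the 27025 genes of the promoter table, whether read in these cells or not (quartiles 2 and 16). That start was the outer end of the annotated gene in 44 of the 75 and a base inside it in the others. At least 10 CG pairs were found in 25 of 75 promoters (33.3%), against 72.6% of all genes tested and 38.2% of the promoter table. GC content had a median of 52.4%, against 59.6% in all genes tested and 52.0% in the promoter table. Among the genes in the macrophage and myeloid list 1 of 23 promoters had at least 10 CG pairs, and among the others 24 of 52. The letters TATAAA on the sense strand were present in 7 of the 75 promoters (9.33%), in 4.02% of all genes tested and in 8.12% of the promoter table. Split by the response to co-culture, the median was 5 pairs in genes that fell, 5.5 in genes that rose and 5 in the remainder. The 4 promoters printed here show that genes with few and with many CG pairs occurred in either direction of response, among those that fell (Adipoq and Pik3ap1) and among those that rose (Pf4 and Avpr1a). Each is the 250 bases before the annotated gene, 5′ to 3′ on the sense strand, with every CG in capitals.
Adipoq (chr16:23146286-23146535, plus strand): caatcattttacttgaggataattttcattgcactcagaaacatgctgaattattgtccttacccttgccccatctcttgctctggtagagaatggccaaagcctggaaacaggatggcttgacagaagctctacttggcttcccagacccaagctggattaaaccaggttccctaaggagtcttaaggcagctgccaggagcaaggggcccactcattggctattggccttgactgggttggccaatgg
Pik3ap1 (chr19:41385103-41385352, minus strand): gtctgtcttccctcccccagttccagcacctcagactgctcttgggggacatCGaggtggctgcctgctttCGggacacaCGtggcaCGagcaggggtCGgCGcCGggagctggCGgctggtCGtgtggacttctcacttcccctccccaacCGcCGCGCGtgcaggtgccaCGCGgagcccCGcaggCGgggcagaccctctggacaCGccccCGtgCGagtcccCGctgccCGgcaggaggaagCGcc
Pf4 (chr5:90772185-90772434, plus strand): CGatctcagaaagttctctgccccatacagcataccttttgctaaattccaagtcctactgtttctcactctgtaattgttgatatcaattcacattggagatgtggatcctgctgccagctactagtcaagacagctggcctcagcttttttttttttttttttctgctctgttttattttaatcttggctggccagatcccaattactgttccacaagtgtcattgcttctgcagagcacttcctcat
Avpr1a (chr10:122448249-122448498, plus strand): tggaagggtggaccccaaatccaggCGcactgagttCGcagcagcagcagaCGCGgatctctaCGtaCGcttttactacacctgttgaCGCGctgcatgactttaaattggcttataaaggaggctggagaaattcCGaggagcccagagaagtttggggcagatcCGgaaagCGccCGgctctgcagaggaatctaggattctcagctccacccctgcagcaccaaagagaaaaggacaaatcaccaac
They hold 0, 23, 1 and 12 CG pairs in this order.

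**Figure D1:**
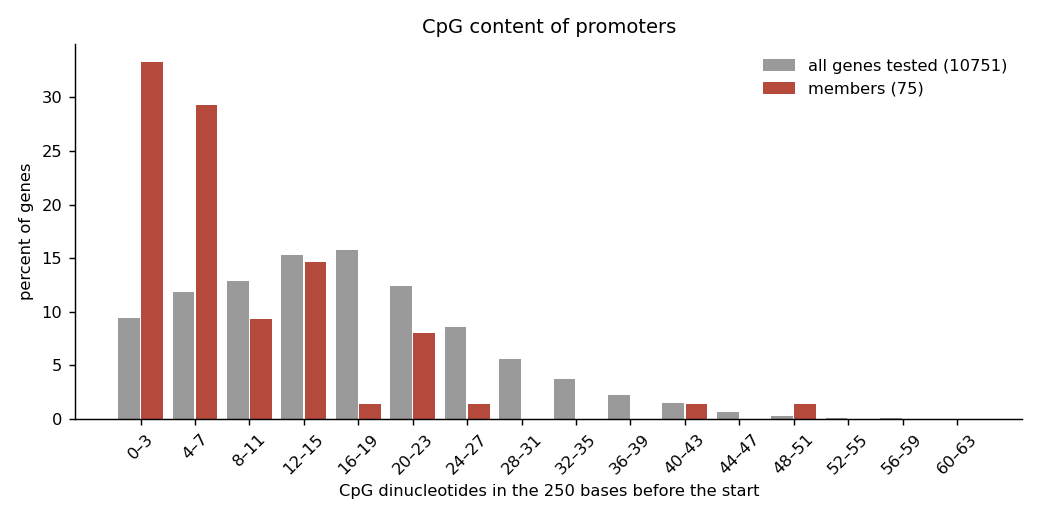
Number of CG pairs in the 250 bases before the start (x axis, in classes of 4) against the percent of genes in that class (y axis) for all genes tested (grey, 10751 promoters) and the old-only genes (red, 75 promoters). The classes 0 to 3 and 4 to 7 hold 33.3% and 29.3% of the old-only genes, and 9.37% and 11.8% of all genes tested.

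The contrast between young and old was wide for every gene, as the choice required. No read was found in any young library for 29 of the 110, at most 1 read per library for 58, and 25 had a library with 3 reads. Set against a floor of 3 reads per library, levels in old MSCs were at least 31.9-fold (Gm7361) to at least 1025-fold (Gria3) higher. Of the 110, 15 had an old mean of 1000 or more and 51 lay between 100 and 200. The young limit ran through a continuous range: Slfn5, Slc8a1 and C130074G19Rik lay just inside it at 3.35, and Slc11a1 (3.98), Adh7 and Itga9 (both 4.05) just outside. At the old limit, Gm7361 (100.6), Npy (101) and Pik3ap1 (102) were inside and Pik3cg (99.8), Csf2rb2 (99.6) and Otor (99.0) outside. A further 97 genes with an old mean of at least 100 had 4 to 10 reads in their highest young library, and 62 genes within the young limit had an old mean of 50 to 100.

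The highest counts in old MSCs belonged to genes known from nerve, liver, adrenal, fat and blood cells. Gria3, a subunit of the AMPA glutamate receptor, had 3234 ± 96.6 normalized counts in old MSCs (mean ± SD, n = 6) and at most 1.03 in a young library. Kng1 (kininogen, the precursor of bradykinin) followed with 2574 ± 71.8 and Nkd2 (an inhibitor of Wnt signalling) with 2357 ± 119. Aplp1, a relative of the amyloid precursor protein, had 2240.4 ± 70.0 in old MSCs and no read in any young library. Mrap, which carries the ACTH receptor to the cell surface, had 1800.0 ± 94.8. The others of the highest 12 were Svop, Slfn5, Brinp3, Rftn1, Pitx1, Adipoq and Laptm5, from 1563 ± 133 for Svop to 1153 ± 95.5 for Laptm5. For a rough comparison of genes, counts were divided by the length of the longest annotated transcript, which need not be the form expressed here. Per kilobase, Mrap was highest (1496 normalized counts per kb), ahead of Kng1 (1141), Aplp1 (906), Adipoq (897) and Dlx5 (718). Gria3 came to 621 on this scale.

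**Figure D2:**
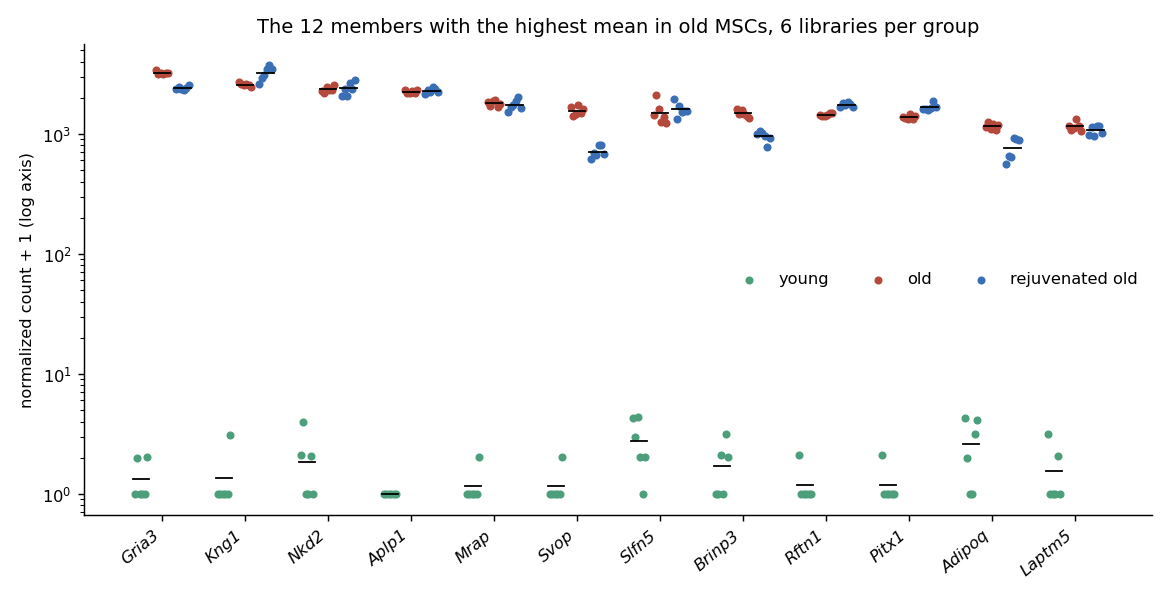
Normalized count + 1 (y axis, log scale) of the 12 old-only genes with the highest mean in old MSCs (x axis), one point per library and a bar at the mean of 6 libraries, in young (green), old (red) and rejuvenated old MSCs (blue). All young points lie below 5, and the old and rejuvenated old points lie above 500 for every gene.

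The 110 genes were sorted by known role after their values had been seen, so that the counts by role below are descriptions without a test. Counts of genes that fell or rose after co-culture are to be read beside all genes tested, of which 20.7% fell and 21.0% rose. A macrophage and myeloid list held 30 of them, and 11 more were other immune genes. Genes of neurons and other excitable cells numbered 17. Transcription regulators numbered 9, bone and matrix genes 4, coagulation and secreted vascular genes 6, adipokine and lipid uptake genes 3, signalling genes 6, and metabolic enzymes, transporters and structural genes 16, and 8 were predicted or unnamed. RefSeq placed 108 of them on a chromosome, 104 as protein coding and 4 as long non-coding RNA. Chromosome 6 held 14, or 2.55% of its 549 genes with an old mean of at least 100, and chromosome 13 held 9 (2.25% of 400), while chromosome 12 held 1 of 374. Neighbouring pairs in the order of all genes were Ccl3 and Ccl4, Cd300ld and Cd300c2, Unc5a and Hk3, Vav1 and Adgre1, Dlx6os1 and Dlx6, Clec4n and Clec4d, and Bmp5 and Hmgcll1. With genes under a mean of 10 passed over, Selp and F5, Cd36 and Gnai1, and Dlx5 beside Dlx6 also adjoined. Ccl3 with Ccl4, Unc5a with Hk3, Dlx6 with Dlx6os1, and Hoxa11 with Hoxa11os overlap in the annotation. The strand setting of the read counting is not given in the sources used here, so that reads of such pairs may be shared. Reads may likewise be split between close copies such as Kng1 and Kng2, Bglap2 and Bglap, Akr1c12 and Akr1c13, or Isoc2b and Isoc2a. In young MSCs Isoc2a averaged 767 while Isoc2b had no read in any library.

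Neighbours outside the set could be silent or active in young MSCs. Hoxa10, 1251 bases from Hoxa11, had means of 2546 in young and 2680.4 in old MSCs, whereas Hoxa11 was at most 2.23 in young. Kng2 beside Kng1 averaged 7.86 in young, 3107 in old and 4717 in co-cultured cells. Hoxd8 beside Hoxd9 had 4.19, 184 and 229. Clec4e beside Clec4d had no young read, and means of 48.6 and 88.0 in the other groups.

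Co-culture left every one of these genes far above the young level. The lowest value of any of them in any rejuvenated old library was 25.1, for Wdr72, and none was at or under 3 reads in all libraries of that group. The median level in rejuvenated old MSCs was 92.7% of that in old MSCs, with a range from 35.1% (Wdr72) to 306% (Esm1). All 110 passed the filter for the test of rejuvenated old against old MSCs (limma on log2 of normalized count + 1, 6 against 6 libraries, adjusted over 14011 genes). At an adjusted p under 0.05, 42 of the 110 (38.2%) fell and 18 (16.4%) rose. Of all genes tested, 20.7% fell and 21.0% rose, and of the 11060 with an old mean of at least 100, 23.1% fell and 22.9% rose. In 27 of the 110, all 6 rejuvenated old libraries lay below all 6 old libraries (12% of all genes tested), and in 10 they lay above (10.6%). A change of at least 2-fold downward was called in 6 (0.999% of genes tested) and upward in 4 (1.19%). The median log2 fold change was -0.11, with 0.01 over all genes tested, and the median size of change in either direction was 0.24 against 0.14. The old-only genes had lower counts, with a median old mean of 209 against 684, and the part of level in these sizes was not tested. With the limit on the old mean at 50 the median log2 fold change was -0.15, and with it at 200 it was -0.08.

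Without rejuvenated old replicate 1, 41 genes fell and 17 rose. With the young libraries included in the same fit, where these genes scatter between 0 and 3 reads, 22 fell and 8 rose. The share of all genes called in that fit was not counted, and the shares above belong to the fit without young libraries.

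**Figure D3:**
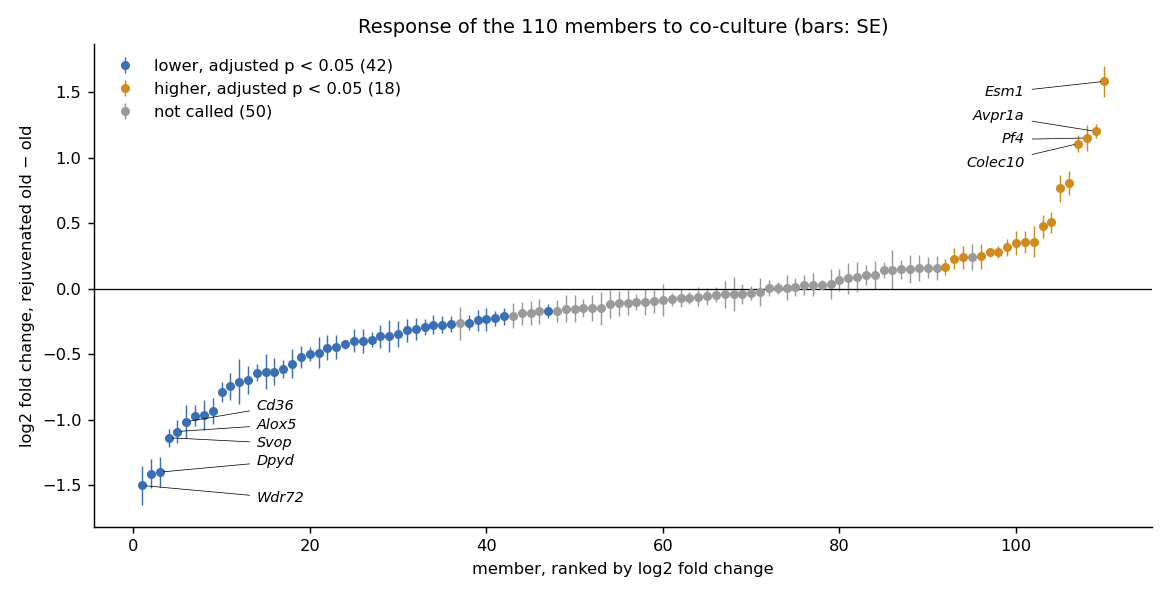
Log2 fold change between rejuvenated old and old MSCs (y axis, with its SE) for each of the 110 old-only genes, ranked along the x axis and coloured by the test result. The 42 genes that fell reach down to -1.50 for Wdr72, the 18 that rose reach up to 1.58 for Esm1, and 50 did not pass the test.

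Of the 17 genes sorted under neurons and excitable cells, 11 fell and none rose, with a median log2 fold change of -0.50, where 20.7% of all genes tested fell. All 11 had no overlap between groups, as did 12% of all genes tested in that direction. No test of this group was made, since its members were sorted with these values known. The counts depend on that sorting. For example, the sodium-calcium exchanger Slc8a1 (0.01, not called) was placed under metabolic enzymes, transporters and structural genes. The summed mean level of the 17 was 12651 in old and 9357 in rejuvenated old MSCs. Svop, a transporter-like protein of synaptic vesicles, ranged over 1407 to 1739 (median 1558) in old and 621 to 809 (median 682) in rejuvenated old MSCs. Every co-cultured library lay below every old one, with a log2 fold change of -1.14 ± 0.07 (SE) and an adjusted p of 3.9e-10 (limma). Gria3, the gene with the highest counts, was at 3155 to 3422 (median 3207) in old and 2332 to 2558 (median 2377) in rejuvenated old MSCs. Its change was small but the libraries did not overlap (-0.43 ± 0.03, adjusted p = 1.5e-08, limma), and its level after co-culture was 74.4% of that in old MSCs. Ano3, a membrane protein of the anoctamin family of channels and scramblases, was at 386 to 535 (median 413) and then 170.4 to 261 (median 240.2), also without overlap (-0.94 ± 0.10, adjusted p = 8.4e-07, limma). Scn3b, an auxiliary subunit of voltage-gated sodium channels, changed by -0.74 ± 0.10 (adjusted p = 1.4e-05, limma).

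Both guidance receptors of the group fell. Unc5a, a receptor for netrin, ranged over 148 to 165 (median 157) in old and 85.6 to 102 (median 89.0) in rejuvenated old MSCs (-0.79 ± 0.08, adjusted p = 1.9e-07, limma). Robo1, a receptor for Slit proteins, ranged over 751 to 839 (median 785) and 506 to 610.3 (median 559) (-0.50 ± 0.05, adjusted p = 6.6e-07, limma). Neither showed overlap between groups. Brinp3, a secreted protein of the nervous system, fell by 0.64 on the log2 scale, Car8 (a carbonic anhydrase-related protein) by 0.62, Adcy2 (an adenylyl cyclase) by 0.52 and Sult4a1 (a sulfotransferase family member of brain) by 0.49. The remaining 6 did not pass the test and had log2 fold changes of -0.15 (Ptprz1, a receptor phosphatase) to 0.14 (Ptprd, another), with -0.12 for the choline transporter Slc5a7 and -0.10 for neuropeptide Y. Ptprd passed without old replicate 4 (adjusted p = 0.018, limma). Aplp1 was at 2177 to 2338 (median 2223) and 2142 to 2455 (median 2276), with overlapping libraries and a log2 fold change of 0.03 ± 0.04 (adjusted p = 0.53, limma). A list of Schwann cell and neural markers was read in part. Of its 24 genes, 10 had an old mean of 10 or more and were tested, of which S100b (means of 557 and 311), Map2 (14.9 and 7.84) and Nes (928 and 767) fell and Tubb3 (208 and 345) rose after co-culture. No more than 3 reads in any library were found for 9, among them Sox10, Foxd3, Snap25, Nefl, Elavl4, Dcx, Olig1 and Olig2. The list's summed level was 2899 to 3078 in old and 2597 to 2849 in rejuvenated old libraries, and 2607 to 2779 in young ones.

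Of the 3 adipokine and lipid uptake genes 2 fell, and of the 4 bone and matrix genes 3 fell. These groups are small, and 20.7% of all genes tested fell and 21.0% rose. Adiponectin (Adipoq), a hormone secreted by fat cells and by marrow stroma, was 1143, 1246, 1099, 1202, 1079 and 1183 in the 6 old libraries. In the 6 rejuvenated old libraries it was 561, 648, 640.3, 922, 903 and 886. All co-cultured values lay below all old ones, and they fell into a lower and a higher group of 3 with a gap between 648 and 886. The lower group was replicates 1 to 3 and the higher one replicates 4 to 6. Kng1, Esm1, Avpr1a, Colec10 and Hoxd9 were also lower in replicates 1 to 3, and F5, Selp and Car8 higher, each without overlap. So were Nkd2, Vstm4, Pirb, Adamdec1 and C130074G19Rik on the lower side and Hoxa11 on the higher one. These are examples picked with their values seen, and the share of all genes tested with such a split was not counted. Gria3, Svop and Pf4 showed no such split. Its origin was not tested, and the p-values treat the 6 libraries as independent. For Adipoq the log2 fold change was -0.63 ± 0.10 (adjusted p = 9.3e-05, limma). Cd36, a receptor that takes up fatty acids and oxidized lipoprotein, ranged over 242 to 283 (median 277) and 95.1 to 172 (median 131), again without overlap (-1.02 ± 0.12, adjusted p = 3.4e-06, limma). Mrap, also expressed in fat cells, was at 1679.9 to 1901 (median 1807) and 1527 to 2014 (median 1700.2) and did not pass the test (-0.05 ± 0.06, adjusted p = 0.53, limma). Of 18 genes in the adipocyte list 13 were tested, and 5 fell and 5 rose, with a median log2 fold change of 0.08. Cebpa and Fabp4, which are no members because young MSCs expressed them, had log2 fold changes of 0.38 and 0.48.

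The bone genes were few. Bglap2, a copy of the osteocalcin gene, ranged over 185 to 238 (median 206) in old and 145 to 181 (median 162) in rejuvenated old MSCs, with no overlap (-0.36 ± 0.09, adjusted p = 0.0023, limma). Dlx5, a homeobox factor that drives osteoblast genes, ranged over 922 to 1091 (median 1030.5) and 682 to 865 (median 767) (-0.39 ± 0.06, adjusted p = 4.0e-05, limma). Its neighbour Dlx6 fell as well (-0.40 ± 0.09, adjusted p = 0.0014, limma), and both were separated between groups. Dlx6os1, the RNA transcribed opposite Dlx6, was at 88.2 to 124 (median 101) and 70.8 to 116 (median 95.0) and did not pass (-0.15 ± 0.12, adjusted p = 0.36, limma). Bmp5, a bone morphogenetic protein, fell by 0.28 and Chsy3, a chondroitin synthase, by 0.35 on the log2 scale, both with overlapping libraries. The microfibril protein Fbn2 had a log2 fold change of 0.15, which did not pass. In the osteoblast list as a whole, 13 of 20 genes tested fell and 5 rose, with a median of -0.30, where 20.7% of all genes tested fell and 21.0% rose. Its summed level was 263781 to 285854 in old, 177184 to 215451 in rejuvenated old and 121476 to 139172 in young libraries.

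The largest rises belonged to secreted proteins and a hormone receptor. Of the 6 coagulation and secreted vascular genes 4 rose and 1 fell, where 21.0% of all genes tested rose and 20.7% fell. One of the 4, Colec10, is a collectin and not a coagulation factor, and the sorting was made with the values known. Esm1 (endocan), a proteoglycan released by endothelial cells, was 200.01, 259.9, 211, 233, 237 and 221 in the old libraries and 555, 625, 523, 955, 695 and 819.8 in the rejuvenated old libraries. Every co-cultured library lay above every old one, with a log2 fold change of 1.58 ± 0.12 (adjusted p = 7.5e-09, limma) and the widest scatter of the risen genes (coefficient of variation 23.8% in rejuvenated old MSCs). Avpr1a, the vasopressin receptor of smooth muscle and liver, went from 727 to 861 (median 805) to 1646 to 2011 (median 1884) and had the smallest adjusted p among the 110 (1.20 ± 0.05, adjusted p = 6.7e-12, limma). Pf4, a chemokine stored in platelets and also made by macrophages, had no young read and ranged over 95.9 to 108 (median 104) in old and 188 to 283 (median 225) in rejuvenated old MSCs (1.15 ± 0.10, adjusted p = 5.4e-08, limma). Colec10, a soluble collectin that binds sugars on microbes, ranged over 299 to 372 (median 344) and 666 to 799.6 (median 743) (1.11 ± 0.07, adjusted p = 2.9e-10, limma). None of these 4 showed overlap between groups.

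Other secreted proteins of the blood changed less. Kng1 ranged over 2481 to 2695 (median 2572) in old and 2622 to 3720.5 (median 3286) in rejuvenated old MSCs, and the groups overlapped (0.31 ± 0.06, adjusted p = 7.0e-04, limma). F5, coagulation factor V, ranged over 943 to 1074 (median 976) and 526 to 883 (median 749.9), with every co-cultured library lower (-0.45 ± 0.09, adjusted p = 9.4e-04, limma). Selp (P-selectin), the next expressed gene to F5 on chromosome 1, was at 311 to 356 (median 347) and 194 to 379 (median 301) and did not pass (-0.26 ± 0.13, adjusted p = 0.10, limma), but did without rejuvenated old replicate 3 (adjusted p = 0.026, limma). Markers of endothelial cells and platelets were present in part. Of the 24 genes in the endothelial list 5 had an old mean of 10 or more, the highest being Eng (means of 7340 in old and 7741 in rejuvenated old MSCs), which is also in the stromal list, Egfl7 (186 and 177) and Vwf (127 and 150). The endothelial genes Cdh5, Tie1, Emcn, Sox17 and Cldn5 were at most 3.64 in any old or rejuvenated old library, and the platelet gene Gp9 at most 2.15. Itga2b, an integrin chain of platelets and their precursors, had means of 285 and 257. Ppbp, another platelet chemokine, ranged over 14.8 to 30.2 in old and 3.86 to 16.2 in rejuvenated old MSCs. The summed level of the endothelial list was 7427 to 8086 in old and 7953 to 8566 in rejuvenated old libraries. The part of these cell types in the rises was not tested.

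**Figure D4:**
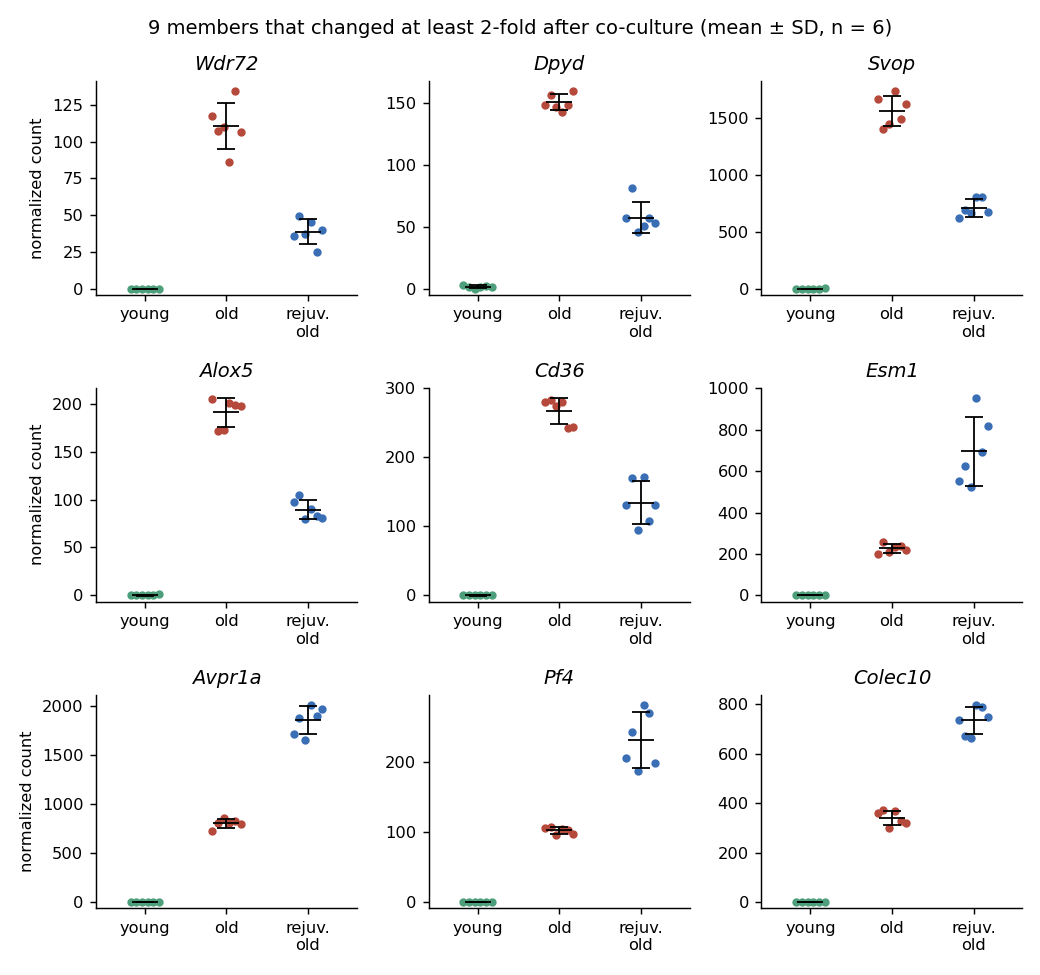
Normalized counts (y axis) of 9 old-only genes whose level changed at least 2-fold between old and rejuvenated old MSCs, one point per library, with mean ± SD of 6 libraries, in young, old and rejuvenated old MSCs. In each panel the old and rejuvenated old points do not overlap, and all 6 young points lie at 3.3 or lower.

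Genes of the macrophage and myeloid list moved in both directions. Of the 30 among the 110, 8 fell, 5 rose and 17 did not pass the test, with a median log2 fold change of -0.09. In the whole list of 117 genes, 104 were tested, 20 fell and 13 rose, and the median was -0.04. For comparison, 20.7% of all genes tested fell and 21.0% rose, with a median of 0.01. The list's summed level was 18374 to 19366 in young, 40423 to 47569.8 in old and 38964 to 45493 in rejuvenated old libraries, and for 66 of its genes no young library exceeded 3 reads. Of that sum Gpnmb, a glycoprotein of macrophages and other cells, gave 16339 to 17209 in young and 2482 to 3006 in old libraries, and without it the list summed to 1963 to 2170.0 in young, 37858 to 44587 in old and 37257 to 43761 in rejuvenated old libraries. Of the 8 left-out macrophage markers, Cd68 (means of 1229 and 983, log2 fold change -0.32, adjusted p = 1.9e-04, limma) and Ptprc (179 and 149, -0.26, adjusted p = 0.027, limma) fell. The other 6 (C1qa, C1qb, C1qc, Tyrobp, Csf1r and Fcer1g) had log2 fold changes of -0.05 to 0.10 and did not pass. The remaining 80 of the 110 included 34 that fell and 13 that rose, with a median of -0.15.

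Alox5 (5-lipoxygenase, which starts leukotriene synthesis) had the largest fall of the myeloid genes, from 171 to 205 (median 198) to 79.9 to 105 (median 86.3) without overlap (-1.09 ± 0.09, adjusted p = 2.6e-08, limma). Cd180, a Toll-like receptor relative, and Dock2, an activator of Rac in leukocyte migration, fell by 0.63 and 0.45 on the log2 scale. Ms4a7, C3ar1 (the receptor of complement C3a), Nckap1l, Inpp5d (the phosphatase SHIP1) and Cd84 fell by 0.29, 0.26, 0.24, 0.24 and 0.21, and their libraries overlapped. The calls for Nckap1l and Inpp5d were lost on leaving out any one of 4 and of 7 of the 12 libraries (adjusted p up to 0.059 and 0.095, limma). In the other direction, Fcgr2b, the inhibitory Fc receptor, ranged over 232 to 329.6 (median 300.3) and 385 to 455 (median 414), and Itgam, the integrin chain CD11b, over 231 to 315 (median 277) and 316 to 441 (median 388). Both rose without overlap, by 0.51 ± 0.08 (adjusted p = 7.8e-05, limma) and 0.48 ± 0.09 (adjusted p = 3.3e-04, limma). Cd52 (a small surface glycoprotein of leukocytes), Clec4n (Dectin-2) and Fcgr3 rose by 0.36, 0.25 and 0.16 with overlapping libraries, and the calls for Clec4n and Fcgr3 were lost on leaving out any one of 7 and of 6 libraries (adjusted p up to 0.088 and 0.091, limma). Among those that did not pass were Adgre1 (the macrophage marker F4/80) with -0.21 ± 0.10, Cybb (the oxidase subunit gp91phox) with -0.15 ± 0.07, Msr1 (a scavenger receptor) with -0.04 ± 0.08, C5ar1 with -0.07 ± 0.07, Laptm5 with -0.10 ± 0.06, Clec4d with -0.06 ± 0.07 and Csf2ra with 0.10 ± 0.08. The chemokines Ccl3 and Ccl4 had 0.16 ± 0.08 and 0.16 ± 0.09. The others of the list (Pirb, Vav1, Arhgap30, Hpgds, Myo1g, Clec12a, Clec5a and Ncf4) lay between -0.19 and 0.09. Adgre1 passed without old replicate 6 (adjusted p = 0.037, limma) or rejuvenated old replicate 2 (0.021), and Pirb without rejuvenated old replicate 5 (0.025).

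Of the 11 immune genes outside that list, 5 fell and 2 rose, where 20.7% of all genes tested fell and 21.0% rose. Ch25h, which makes 25-hydroxycholesterol, ranged over 126 to 147 (median 132) and 60.8 to 95.0 (median 84.9) without overlap (-0.70 ± 0.11, adjusted p = 4.0e-05, limma). Pik3ap1, a signalling adaptor of B cells and macrophages, fell by 0.57, Slc15a3 (a lysosomal peptide transporter) by 0.40, Hk3 (a hexokinase of myeloid cells) by 0.32 and Mmp12 (macrophage elastase) by 0.27 on the log2 scale. Slc15a3 overlaps Tmem132a in the annotation, whose mean was 3537 in old and 2606 in rejuvenated old MSCs. Young MSCs had a Tmem132a mean of 3515, although no young library exceeded 3.35 for Slc15a3. Sharing of reads between these genes was not tested. Adamdec1, a metalloprotease of macrophages and gut stroma, rose from 124 to 142 (median 128) to 170.3 to 282 (median 215) without overlap (0.77 ± 0.11, adjusted p = 1.4e-05, limma). Cd300c2, an activating receptor, rose by 0.24, a call lost on leaving out any one of 9 of the 12 libraries (adjusted p up to 0.091, limma) and with edgeR (0.054) or DESeq2 (0.055), and its neighbour Cd300ld had -0.15 ± 0.10, which did not pass. Slfn5 and Trim12a, genes of the interferon response, had 0.11 ± 0.11 and 0.14 ± 0.15 and varied more than most within the old group (coefficients of variation 21.4% and 29.6%). Slfn5 passed without old replicate 2 (adjusted p = 0.048, limma). Fcrls had 0.16 ± 0.10.

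Transcription regulators were split in direction, 5 falling and 2 rising of 9, where 20.7% of all genes tested fell and 21.0% rose. Pitx1, a homeobox factor of the hindlimb, ranged over 1317 to 1475 (median 1362) in old and 1593 to 1893 (median 1641) in rejuvenated old MSCs, above all old libraries (0.28 ± 0.04, adjusted p = 6.1e-05, limma). Hoxd9 ranged over 198 to 231 (median 204) and 218 to 325 (median 264) and rose with overlap (0.35 ± 0.09, adjusted p = 0.0053, limma), while Hoxa11, at 449 to 477 (median 463) and 382 to 463 (median 403), fell (-0.17 ± 0.06, adjusted p = 0.020, limma). Pax3, a factor of muscle and neural crest precursors, had no young read and was at 184 to 219.8 (median 204) and 138 to 195 (median 164) (-0.31 ± 0.08, adjusted p = 0.0071, limma). Of the 17 genes in the skeletal muscle list 5 were tested and 4 fell, Pax3 itself, Acta1 (means of 199.6 and 120.01, adjusted p = 3.0e-05, limma), Tnnc1 (160.2 and 126) and Musk (16.7 and 5.62). The muscle regulators Myod1, Myf5, Myog and Pax7 were at most 1.03 in any library. Stox2 had -0.07 ± 0.04 and did not pass.

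Metabolic, transport and structural genes held both the largest fall and many small values. Wdr72, a protein known from enamel formation, had no young read and ranged over 86.4 to 134 (median 109) in old and 25.1 to 49.1 (median 38.4) in rejuvenated old MSCs (-1.50 ± 0.15, adjusted p = 2.6e-07, limma). Dpyd, which degrades uracil and thymine, ranged over 143 to 159.7 (median 148) and 45.7 to 81.2 (median 54.7) (-1.40 ± 0.12, adjusted p = 3.1e-08, limma). Espn, an actin bundler of hair cell stereocilia, ranged over 101 to 147 (median 118) and 53.8 to 71.7 (median 59.9) (-0.96 ± 0.11, adjusted p = 2.1e-06, limma). All 3 were without overlap, and Dsc2 (a desmosomal cadherin) fell with overlap by 0.36, a call lost on leaving out any one of 5 libraries (adjusted p up to 0.068, limma). The aldo-keto reductase Akr1c12 and the membrane protein Vstm4 rose by 0.36 and 0.23, the latter a call lost on leaving out any one of 6 libraries (adjusted p up to 0.071, limma). The other 10 of these 16 genes did not pass, among them the sodium-calcium exchanger Slc8a1 with 0.01 ± 0.06 and Hmgcll1 with -0.03 ± 0.05. Of the 6 signalling genes, Avpr1a and Rftn1 rose and Fam49a fell by 0.28 on the log2 scale. Rftn1, a lipid raft protein, ranged over 1403 to 1505 (median 1436) and 1659 to 1845 (median 1761) (0.28 ± 0.04, adjusted p = 8.8e-06, limma). Nkd2 ranged over 2210.5 to 2551 (median 2327) and 2056 to 2833 (median 2371) and did not pass the test (0.01 ± 0.07, adjusted p = 0.90, limma). Among the 8 predicted or unnamed genes, 2 fell and 1 rose, the last being C130074G19Rik with 0.81 ± 0.09 (adjusted p = 1.2e-06, limma). Beside the counts in this paragraph, 20.7% of all genes tested fell and 21.0% rose.

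**Figure D5:**
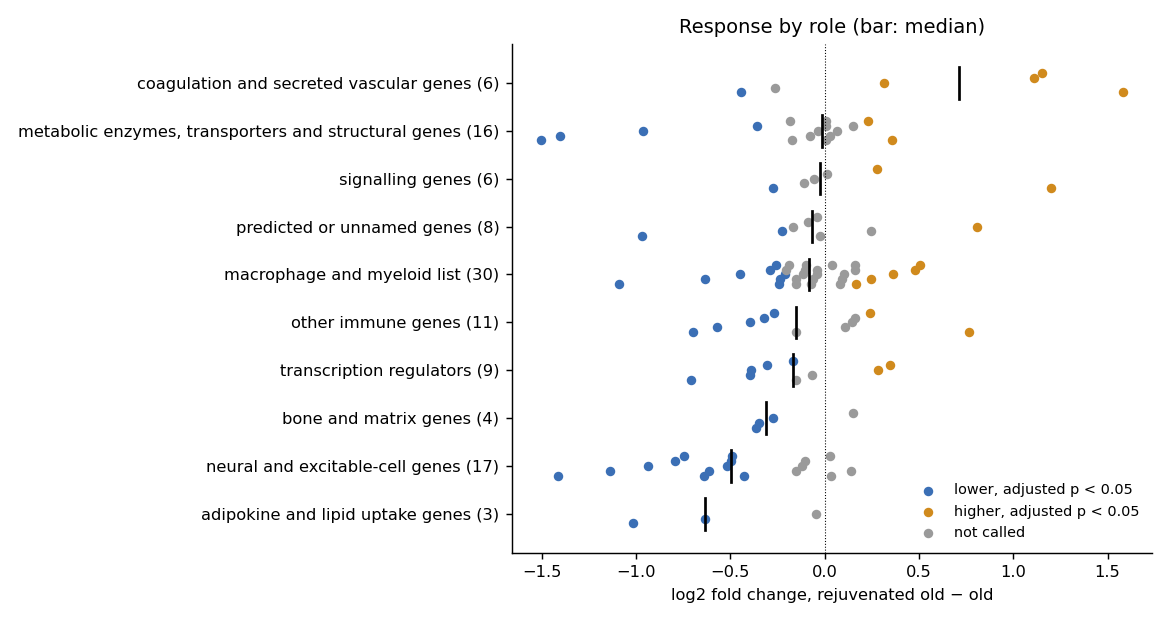
Log2 fold change between rejuvenated old and old MSCs (x axis) for each of the 110 old-only genes, in rows by role with the number of genes in brackets, coloured by the test result, with a bar at the median. The 17 neural and excitable-cell genes have a median of -0.50 with 11 that fell, and 4 of the 6 coagulation and secreted vascular genes rose. Over all genes tested 20.7% fell and 21.0% rose, and roles were sorted with the values known.

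The genes also differed in how far libraries of one group scattered. The median coefficient of variation over the 110 genes was 8.47% in old and 11.3% in rejuvenated old MSCs, and over all genes tested it was 6.23% and 7.98%. The 110 genes also had lower counts, with a median old mean of 209 against 684 over all genes tested. The part of level in this difference was not tested. In rejuvenated old MSCs the most variable were Selp (24.5%), Esm1 (23.8%), Cd36 (23.5%), Cd52 (23.3%) and Dpyd (21.8%), and in old MSCs Trim12a had 29.6%.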

How the data were processed

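The authors aligned reads to mm10 with HISAT2 and used StringTie, featureCounts and DESeq2 on Galaxy. Versions, annotation, strand setting and filters are not given in the sources used here. The deposited values are a signal of normalized counts, reads divided by one factor per library, and whole reads were recovered for 100% of values (tolerance 0.01). Genes with a mean of at least 10 over the 12 old and rejuvenated old libraries were tested with limma 3.58.1 (R 4.3.3) on log2(normalized count + 1), with a variance prior that follows the mean, Benjamini-Hochberg adjustment and a threshold of 0.05. Fold changes on this scale understate those of low genes. The scripts were tested on simulated data. No 2 libraries of a group agreed within sampling noise (chi-square per degree of freedom of at least 2.54). The members and gene lists were chosen with earlier results of these data known. Named are the 12 highest old means, the 8 strongest calls in each direction, members in a fixed marker list, genes beside each limit and adjacent members; predicted genes were passed over unless in such a run, some results are not reported here, and every other name, all roles and the printed promoters were chosen after the values were seen. Gene positions are from RefSeq GRCm38.p6, and the marker lists were written by hand. Alternatives were edgeR 4.0.16 and DESeq2 1.42.0 on the recovered reads, other pseudocounts, filters, scalings, limits and thresholds, and each library left out.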

Additional observations from a re-analysis of the deposited data

Results flagged for a closer look

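In 11 of the 182 groups of 6 libraries examined for the named genes (6.04%), 1 library lay farther from the rest than Dixon's 95% limit for 6 values, close to the share of about 1 in 20 that chance gives. Among the old libraries, Gria3 was 3422 in replicate 1, with 3155 to 3242 in the others. Ms4a7 was 488 in old replicate 2 (533 to 555 in the others) and Pirb 169 (196 to 211), while Gm7361 was 129 there (88.5 to 97.9). In old replicate 4, Myo1g was 134 (99.1 to 112), Ncf4 127 (97.2 to 106) and Ptprd 425 (338 to 370.4). Among the rejuvenated old libraries, Unc5a was 102 in replicate 1 (85.6 to 90.8), Dpyd 81.2 in replicate 2 (45.7 to 56.8), Pitx1 1893 in replicate 5 (1593 to 1672) and Ptprd 454 in replicate 6 (382 to 407). Dpyd, Unc5a, Pitx1, Gria3 and Ms4a7 stayed called without these libraries.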

How the results depend on the processing

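The counts of 42 old-only genes that fell and 18 that rose became 22 and 8 with all 18 libraries in one fit, and 6 and 4 when calls also had to reach 1 on the log2 scale. For the fit of all 18 libraries the share of all genes called was not counted. Other limits changed the number of genes: 10 fell and 3 rose of 29 with every young library at 0, 66 and 40 of 191 with young libraries at or under 10, and 25 and 12 of 59 with an old mean of at least 200. These counts come from the main fit, in which 20.7% of all genes tested fell and 21.0% rose. With each library left out, 39 to 43 fell, 14 to 19 rose, the median log2 fold change was -0.14 to -0.10 and the median level 90.9% to 93.7% of old. Counts under the remaining alternatives, and both medians under every alternative that can alter them, moved by less than 1.5 times or less than 1 SD between libraries. limma shared 59 of its 60 calls with edgeR and with DESeq2. Of the 56 called genes named in the text, 27 kept call and direction in all 24 alternative fits, 29 lost the call in at least 1, mostly in the fit of all 18 libraries, and none reversed. The calls lost on leaving out 1 library were Cd300c2 without old replicates 1, 2, 3, 5 and 6 or rejuvenated old replicates 1, 2, 4 and 5, Clec4n without old replicates 2, 5 and 6 or rejuvenated old replicates 2, 3, 4 and 5, Inpp5d without old replicates 1, 2, 4 and 6 or rejuvenated old replicates 3, 5 and 6, Fcgr3 without old replicates 2, 3 and 5 or rejuvenated old replicates 2, 4 and 5, Vstm4 without old replicates 1, 2 and 3 or rejuvenated old replicates 4, 5 and 6, Dsc2 without old replicates 1, 3 and 5 or rejuvenated old replicates 5 and 6, and Nckap1l without old replicate 3 or rejuvenated old replicates 1, 3 and 6. Of the named genes that did not pass, 6 passed in at least 1 alternative: Slfn5, Ptprd, Adgre1 and Pirb on leaving out a library named above, Selp also with the replicate block (adjusted p = 0.037) and Cybb with a single prior variance (0.020). Genes near 0 changed sign without being called: Nkd2 was -0.00337 with the same total per library and -0.0384 to 0.0540 with a library left out; Slc8a1 was -0.00113 with DESeq2, -0.00251 with edgeR, -0.0101 with the same total and -0.0384 to 0.0538 with a library left out; Clec12a ranged from -0.0140 to 0.110 and Myo1g from -0.0806 to 0.0164 with a library left out. Replicate numbers did not pair the libraries (correlations of same-numbered libraries from -0.20 to 0.10, and no library correlated best with its own number). With the replicate block 43 fell and 17 rose. Depth limits the young side to a bound of 3 reads.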
